A study of Sus scrofa with 12 samples.

Results

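The motile cilia genes examined here were 50 protein-coding genes of the pig hypothalamus, out of 19256 genes with mRNA values. They were all genes whose symbol in the mRNA table begins with DNAH, DNAI, CFAP, TEKT or RSPH followed by a digit, together with FOXJ1. By family there were 8 DNAH, 2 DNAI, 29 CFAP, 4 TEKT and 6 RSPH genes besides FOXJ1, and their choice used symbols and no measured value. The values of all transcripts of a gene were added up. The 50 genes are spread over the genome. Of the 43 with a position in the RefSeq annotation of Sscrofa11.1, 7 lie on chromosome 12, 7 on chromosome 14 and the others on 12 of the other chromosomes (14 in all).

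The study asked how gut microbes bear on gene expression in the hypothalamus. All 6 pigs were born germ-free by hysterectomy from 1 Chinese Bama sow. The 3 GF pigs stayed without a gut microbiota, and the CG pigs, also 3, were colonized by fecal microbiota transplant (FMT) from day 3 to day 7 of life. No genotype or other treatment separates the groups, the labels give 45 days of age and male sex for every pig, and the tissue is a piece of hypothalamus. Each pig gave a long RNA library, read out as TPM (transcripts scaled to a fixed library sum), and a small RNA library, read out as RPM (reads scaled in the same way). TPM is scaled to transcript length, so that levels of different genes can be set side by side, but it keeps no sequencing depth, and the number of reads behind a TPM is unknown. The pigs share a mother, and which pigs shared an isolator is not stated, so an isolator and the group cannot be told apart.

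Motile cilia are the beating hairs on the ependymal cells that line the brain ventricles, including the slit-shaped chamber that runs through the middle of the hypothalamus. Their beating moves cerebrospinal fluid along the wall. Inside each cilium runs the axoneme, a ring of paired microtubules around a central pair. Dynein motors in an outer and an inner row of arms slide the pairs against each other, radial spokes link the ring to the central pair, and proteins inside the microtubules, the tektins among them, stiffen the pairs. FOXJ1 is the transcription factor that switches on the genes of motile cilia. A primary cilium, which most brain cells carry singly, has no dynein arms, spokes or central pair. In a piece of bulk tissue, fewer ciliated cells and less RNA per ciliated cell cannot be told apart.

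The libraries differed in more than their group, and these differences stand here before the results. NKX2-1, a transcription factor of the ventral hypothalamus, stood at 0.10, 5.49 and 3.11 TPM across GF replicates 1 to 3 against 35.4, 35.5 and 40.03 TPM across CG replicates 1 to 3. For the thalamus, the transcription factor SHOX2 gave 71.9, 1.62 and 65.4 TPM among GF pigs against 0 to 0.59 TPM among CG pigs. TTR, the thyroid hormone carrier made by the choroid plexus, stood at 131.6, 200.2 and 43.9 TPM among GF pigs against 5.72 to 9.28 TPM among CG pigs, and HBB, a globin of red blood cells, at 420 to 1172 and 3.03 to 10.03 TPM. CGA, a pituitary hormone subunit, stood at 3579 TPM in CG replicate 3 against 5.43 and 193 TPM in the other CG pigs. The Y-linked gene ZFY stood at 13.7, 16.1 and 0 TPM across CG replicates 1 to 3 and at 0.03 TPM or less in GF pigs, which goes against the label of male sex for 4 of the 6 libraries. The part of tissue composition, blood and sex in the results was not tested. Across all genes, 722 of 14641 tested genes were lower among GF pigs against 158 higher, and the median log2 fold change was -0.23.

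A gene was tested when it reached 1 TPM in at least 3 of the 6 libraries. Of the 50 motile cilia genes, 44 passed this filter, and 6 did not. The test was limma-trend on log2(TPM + 1), adjusted over all 14641 tested genes by the Benjamini-Hochberg method, and each log2 fold change sets GF against CG pigs on that scale, which understates the change of low genes. A gene is called lower or higher in GF pigs at an adjusted p under 0.05.

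As a whole, the motile cilia genes were low in GF replicates 1 and 2 and at the level of CG pigs in GF replicate 3. The 50 genes added up to 221.5, 230.4 and 450.8 TPM across GF replicates 1 to 3 against 460.1, 377.2 and 356.5 TPM across CG replicates 1 to 3. This sum is dominated by a few abundant members, but the median member also set GF replicates 1 and 2 lowest, at 2.01, 2.38 and 6.29 TPM among GF pigs against 6.02, 4.0 and 4.05 TPM among CG pigs. The groups therefore overlapped through GF replicate 3 alone, which stood above CG replicates 2 and 3 in both measures. The number of members at 1 TPM or more was 31, 36 and 45 among GF pigs against 45, 44 and 44 in CG pigs.

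**Figure D1:**
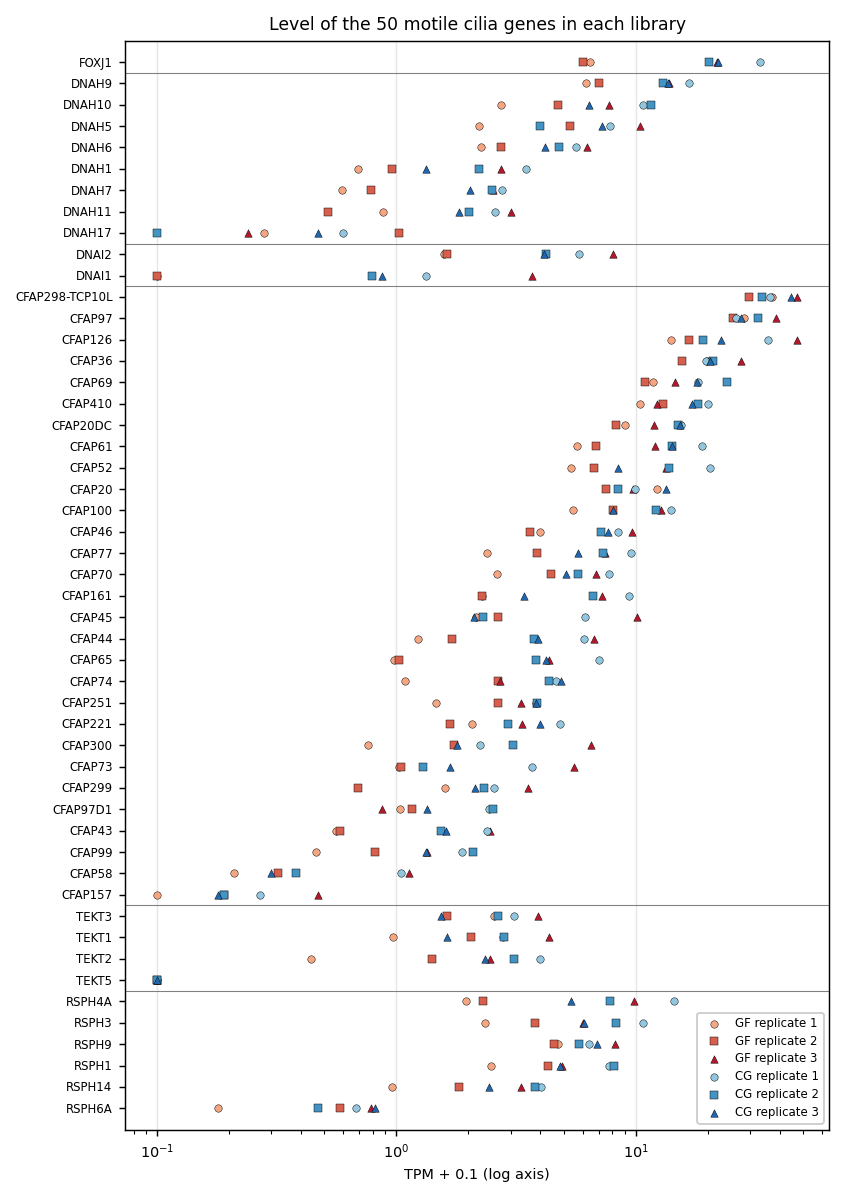
Level of each of the 50 motile cilia genes (rows, by family and then by mean level) in the 6 long RNA libraries, as TPM + 0.1 on a log axis, with 1 point for each library. GF replicates 1 and 2 (light and mid red) lie mostly to the left of the CG libraries (blue). GF replicate 3 (dark red triangles) lies mostly among or to the right of them, and to their left in 8 of the 44 tested genes.

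Between the groups, 0 of the 44 tested members were lower and 0 were higher in GF pigs by limma-trend, where 4.93% of all tested genes were lower and 1.08% higher. With the study's fold threshold as well, a log2 of 1 in size, 2.89% of all tested genes were called and 0 members. At an unadjusted p under 0.05, 14 of the 44 were lower (31.8%) and 0 higher, against 26.6% and 4.31% of all tested genes. The log2 fold change was below 0 in 40 of the 44 members (90.9%) and in 72.7% of all tested genes. Its median was -0.56 over the members, which ran from -1.28 to 0.27. With each library centred on its median, which brings the median of all tested genes to 0.01, 32 of the 44 members were below 0 and their median was -0.31. The groups did not overlap in 8 of the 44 members (18.2%), all lower in GF pigs, where 32.8% of all tested genes were separated in that direction and 5.42% in the other.

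FOXJ1, the regulator of the motile cilia program, which spans 5307370 to 5312117 of chromosome 12, had the most negative fold change of the 44 members. It stood at 6.37, 5.90 and 21.9 TPM across GF replicates 1 to 3 against 33.2, 20.2 and 22 TPM across CG replicates 1 to 3. GF replicates 1 and 2 lay under every CG pig, and GF replicate 3 lay between CG replicates 2 and 3. The means were 11.4 ± 9.10 TPM and 25.1 ± 7.04 TPM (SD, n = 3), which gave -1.28 as log2 fold change (SE, its standard error, 0.46, 95% interval -2.36 to -0.20, limma adjusted p = 0.115). By an exact permutation test, two-sided, over the 6 pigs p was 0.2, where 0.1 is the smallest p that 3 pigs against 3 allow. Without GF replicate 3 the log2 fold change was -1.84 (adjusted p = 0.065), and without any other single library it lay between -1.42 and -0.97.

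The DNAH genes encode the heavy chains of axonemal dynein, the motor subunits. DNAH9, a heavy chain of the outer arm, was the most abundant of the 8, and spans 56045079 to 56366327 of chromosome 12. It stood at 6.10, 6.96 and 13.6 TPM among GF pigs against 16.7, 12.9 and 13.6 TPM among CG pigs, so that GF replicate 3 reached the CG range and the other GF pigs stayed below it (log2 fold change -0.71, SE 0.29, adjusted p = 0.148). DNAH5, the other main heavy chain of the outer arm, stood at 2.12, 5.20 and 10.4 TPM among GF pigs against 7.68, 3.87 and 7.14 TPM among CG pigs. The highest of all 6 libraries was here GF replicate 3, the groups overlapped fully, and the log2 fold change was -0.22 (SE 0.47). DNAH10, a heavy chain of the inner arm, stood at 2.65, 4.66 and 7.63 TPM among GF pigs against 10.7, 11.5 and 6.30 TPM among CG pigs (log2 fold change -0.86, SE 0.35, adjusted p = 0.151). Here CG replicate 3 was the low CG library and lay between GF replicates 2 and 3. DNAH6, of the inner arm, stood at 2.15, 2.65 and 6.18 TPM among GF pigs against 5.52, 4.68 and 4.08 TPM among CG pigs (log2 fold change -0.40, or -0.76 without GF replicate 3 and -0.16 without GF replicate 1). DNAH1, DNAH7 and DNAH11 had the same shape at means of 1.71 to 1.80 TPM, with GF replicate 3 at 3.64, 4.15 and 4.83 times the mean of the other GF pigs. DNAH17, which is known from the outer arm of sperm, stood at 0 to 0.93 TPM in all libraries and was not tested. Over the 7 tested heavy chains 0 were called by limma (2 at an unadjusted p under 0.05), all had a log2 fold change below 0, with a median of -0.50, and GF replicate 3 was the highest GF library in every case.

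The DNAI genes encode intermediate chains, which tie the heavy chains of the outer arm to the microtubule. DNAI2, which spans 6808966 to 6832767 of chromosome 12, stood at 1.48, 1.53 and 7.91 TPM among GF pigs against 5.71, 4.13 and 4.03 TPM among CG pigs. In GF replicate 3 it was above every CG pig and at 5.26 times the mean of the other GF pigs, which both lay below the CG range. The log2 fold change was -0.54 (SE 0.49, adjusted p = 0.481), and ran from -1.15 without GF replicate 3 to -0.23 without GF replicate 1. DNAI1, the partner of DNAI2 in the outer arm, was listed at 0 in GF replicates 1 and 2, at 3.58 TPM in GF replicate 3 and at 1.23, 0.69 and 0.77 TPM among CG pigs, and did not pass the filter.

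The RSPH genes encode radial spoke proteins. RSPH4A, a protein of the spoke head, which spans 44964433 to 45004925 of chromosome 1, stood at 1.85, 2.21 and 9.72 TPM among GF pigs against 14.3, 7.73 and 5.26 TPM among CG pigs. The groups overlapped through GF replicate 3 alone, and the spread within each group was about as large as the difference of their means (4.59 ± 4.44 and 9.10 ± 4.68 TPM, SD, n = 3, log2 fold change -1.03, SE 0.55, adjusted p = 0.245). RSPH3, a protein of the spoke stalk, stood at 2.25, 3.69 and 5.92 TPM among GF pigs against 10.6, 8.15 and 5.99 TPM among CG pigs. Its groups did not overlap, though GF replicate 3 and CG replicate 3 were level to within 0.1 TPM (log2 fold change -0.94, SE 0.32, adjusted p = 0.103). RSPH1, of the spoke head, stood at 2.38, 4.21 and 4.82 TPM among GF pigs against 7.65, 8.02 and 4.75 TPM among CG pigs (log2 fold change -0.71, adjusted p = 0.139), with CG replicate 3 again inside the GF range. RSPH9, also of the spoke head, differed less, at 4.66, 4.47 and 8.12 TPM among GF pigs against 6.29, 5.69 and 6.80 TPM among CG pigs (log2 fold change -0.14, SE 0.24). RSPH14 gave -0.62. RSPH6A, the sperm relative of RSPH4A, stood at 0.08 to 0.71 TPM in all libraries and was not tested. Of the 5 tested spoke genes 0 were called by limma (2 at an unadjusted p under 0.05), and their median log2 fold change was -0.71.

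The CFAP genes (cilia and flagella associated proteins) are a mixed family named for where their products lie, and their members varied widely. The 4 most abundant had small differences. CFAP298-TCP10L, a read-through symbol whose values may combine CFAP298, a factor of dynein arm assembly, with its neighbour, stood at 37.2, 29.6 and 47.1 TPM among GF pigs against 36.5, 33.7 and 44.5 TPM among CG pigs (log2 fold change -0.03, SE 0.20). CFAP97 stood at 28.3, 25.3 and 38.7 TPM among GF pigs against 26.3, 32.4 and 27.6 TPM among CG pigs (0.08, SE 0.19), and CFAP36 at 19.9, 15.5 and 27.5 TPM and 19.7, 20.9 and 20.3 TPM (0.01, SE 0.21). In each of these the CG pigs lay inside the GF range. CFAP126, a protein of the base and the inside of motile cilia known from the mouse, stood at 13.9, 16.6 and 47.4 TPM among GF pigs against 35.7, 19.1 and 22.6 TPM among CG pigs. By a wide margin the highest library was here GF replicate 3, and the log2 fold change was -0.15 (SE 0.45).

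Outside the rule for named genes, and chosen after their values were seen, the CFAP genes without overlap between the groups are given next. CFAP410, a protein of the ciliary base, had the smallest adjusted p of all members (0.059). It stood at 10.3, 12.9 and 12.2 TPM among GF pigs against 20.1, 18.2 and 17.2 TPM among CG pigs, with means of 11.8 ± 1.32 and 18.5 ± 1.47 TPM (SD, n = 3, log2 fold change -0.61, SE 0.15). It was also 1 of only 3 tested members, with CFAP20 and CFAP97D1, in which GF replicate 3 was not the highest GF library. CFAP61, a protein at the base of the radial spokes, stood at 5.57, 6.75 and 11.9 TPM among GF pigs against 18.9, 14.1 and 14.1 TPM among CG pigs (-0.93, SE 0.28, adjusted p = 0.080). CFAP74, of the central pair, stood at 0.99, 2.57 and 2.60 TPM and 4.55, 4.23 and 4.77 TPM (-0.90, adjusted p = 0.079). CFAP20DC (-0.62, adjusted p = 0.073), CFAP69 (-0.65, adjusted p = 0.073), CFAP97D1 (-0.62) and CFAP251, of the spoke base (-0.52), complete the 7 CFAP genes without overlap, RSPH3 being the 8th member. These 7 are 25.9% of the 27 tested CFAP genes, a smaller share than the 32.8% of all tested genes separated in that direction. The gene ID of CFAP69 carries the symbol of its neighbour STEAP2 in the reference names, so its identity is uncertain.

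In other CFAP genes GF replicate 3 stood far from the other GF pigs. CFAP65, of the sperm tail and motile cilium, stood at 0.88, 0.93 and 4.23 TPM among GF pigs against 6.93, 3.75 and 4.11 TPM among CG pigs, with the largest CFAP difference (-1.11, SE 0.43, adjusted p = 0.132). CFAP45, a protein inside the microtubule pairs, stood at 2.05, 2.56 and 10 TPM among GF pigs against 6.05, 2.20 and 2.02 TPM among CG pigs and had the highest fold change of all members (0.27, SE 0.54). CFAP300, a factor of dynein assembly, stood at 0.66, 1.64 and 6.41 TPM and 2.14, 2.98 and 1.70 TPM (-0.02). Of the 27 tested CFAP genes 0 were called by limma (8 at an unadjusted p under 0.05), 24 had a log2 fold change below 0 and their median was -0.52. CFAP58 and CFAP157, known mainly from sperm tails, reached at most 1.03 and 0.37 TPM, in GF replicate 3 both times, and were not tested.

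Tektins form filaments inside the microtubule pairs. TEKT2 stood at 0.34, 1.31 and 2.36 TPM among GF pigs against 3.90, 3.01 and 2.25 TPM among CG pigs (log2 fold change -0.87, SE 0.35, adjusted p = 0.145), with GF replicate 3 just above CG replicate 3. TEKT1 stood at 0.87, 1.96 and 4.24 TPM among GF pigs against 2.7, 2.71 and 1.52 TPM among CG pigs (-0.09), and TEKT3 at 2.47, 1.52 and 3.82 TPM and 3.01, 2.56 and 1.43 TPM (0.09). In TEKT1 and TEKT3 GF replicate 3 was the highest of the 6 libraries and CG replicate 3 the lowest CG library. TEKT5, a tektin of sperm, was listed at 0 in all 6 libraries. Over the 3 tested tektins 0 were called by limma (1 at an unadjusted p under 0.05), and the median was -0.09.

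**Figure D2:**
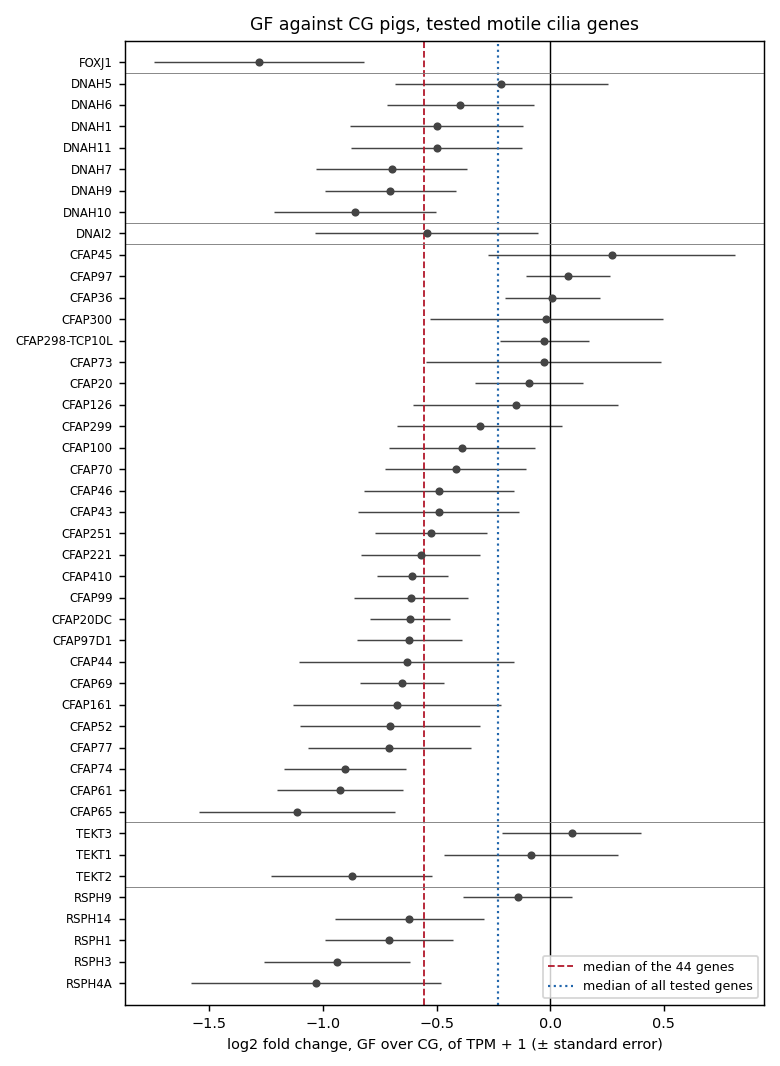
Log2 fold change (GF over CG, of TPM + 1) of the 44 tested motile cilia genes with SEs, by family, with the median of these genes (dashed, -0.56) and of all tested genes (dotted, -0.23). FOXJ1 lies lowest at -1.28 and CFAP45 highest at 0.27, and 4 genes lie above 0.

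What the members shared most was the order of the GF pigs. GF replicate 3 was the highest GF library in 41 of the 44 tested members (93.2%), against 38.5% of all tested genes. It stood at 2 or more times the value of both other GF pigs in 19 members (43.2%), against 1.53% of all tested genes, or 224 genes. The median ratio of GF replicate 3 to the mean of GF replicates 1 and 2 was 2.38 over the members and 1.06 over all tested genes, 95% of which lay under 1.68. The highest ratios were those of CFAP73 (5.80), CFAP300 (5.57), DNAI2 (5.26), CFAP43 (5.02), CFAP44 (4.84) and DNAH11 (4.83). These are values of 1 library against a pair and describe that pig, with no test.

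Against the CG pigs, GF replicate 1 was below all 3 in 38 of the 44 members (86.4%) and GF replicate 2 in 39 (88.6%), where 58.1% and 57.9% of all tested genes were. By contrast, GF replicate 3 was below all CG pigs in 8 members (18.2%), within their range in 18 and above all of them in 18 (40.9%), against 47.9%, 30.3% and 21.8% of all tested genes. Both GF replicates 1 and 2 were below every CG pig in 35 members (79.5%), against 42.2% of all tested genes. Among CG pigs, CG replicate 1 was the highest in 30 of the 44 members (68.2%), against 26.9% of all tested genes, so that the members varied within the CG group as well.

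Without GF replicate 3, all 44 members had a log2 fold change below 0 (74.3% of all tested genes did), and their median was -0.79. An unadjusted p under 0.05 was reached by 29 of the 44, against 24.6% of all tested genes that were lower at that level. Still 0 of the 44 were called, in a fit that called 42 genes in all (0.287%). Without GF replicate 1 the median was -0.33 and 35 of the 44 were below 0. GF replicates 1 and 3 were alike in SHOX2, and GF replicates 2 and 3 in NKX2-1, while the cilia genes set GF replicate 3 apart from both. Some hypothalamus markers did so too. Of 27 tested, 4 (14.8%) had GF replicate 3 at 2 or more times both other GF pigs, against 1.53% of all tested genes. The part of tissue composition in this order was not tested.

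**Figure D3:**
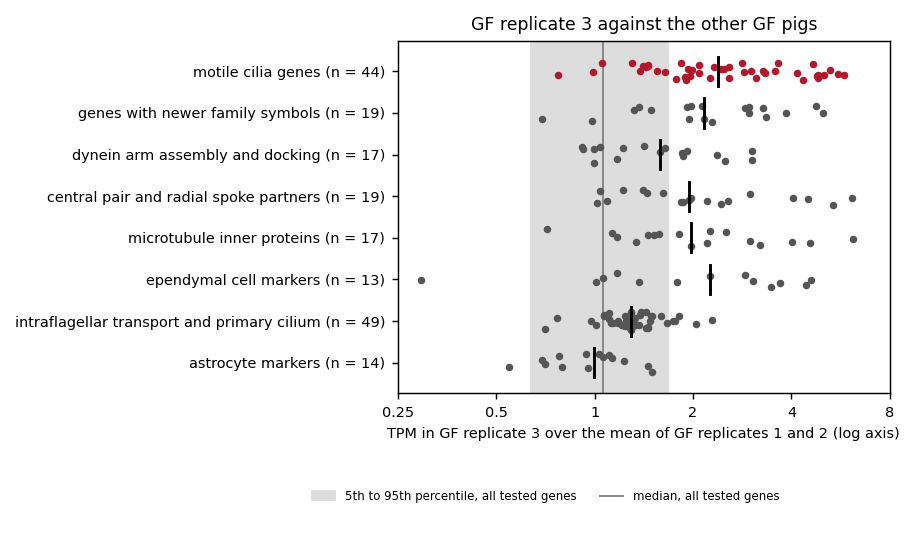
Ratio of the TPM in GF replicate 3 to the mean of GF replicates 1 and 2 (log axis), with 1 point for each tested gene and a black bar at the median of each list, over the 5th to 95th percentile of all tested genes (grey, 0.64 to 1.68). The motile cilia genes have a median of 2.38, while genes of intraflagellar transport and the primary cilium have 1.29 and astrocyte markers 0.99.

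By transcript, the members had 99 annotated mRNA transcripts, of which 57, from 43 genes, were tested among 27945. One DNAH10 transcript, ENSSSCT00000082878, was lower in GF pigs, at 0.49, 0.35 and 0.31 TPM against 2.78, 3.92 and 1.36 TPM among CG pigs (log2 fold change -1.35, SE 0.31, adjusted p = 0.047). It passed the filter through the CG pigs alone, since no GF pig reached 1 TPM, and without the filter the adjusted p was 0.082. It was the only member transcript called, 0 were higher, and 5.25% and 2.29% of all tested transcripts were lower and higher. In this transcript GF replicate 3 was the lowest of the GF pigs and the groups did not overlap, whereas the main DNAH10 transcript stood at 1.80, 2.51 and 6.17 TPM among GF pigs against 5.94, 7.60 and 2.31 TPM among CG pigs. The call was lost in 10 of 11 other settings, and remained without CG replicate 3 (adjusted p = 0.034). A transcript of CFAP69, ENSSSCT00000075589, was listed at 0 in all GF pigs and at 1.0, 7.54 and 2.16 TPM among CG pigs, so that it too was tested through the CG pigs alone (adjusted p = 0.062, and 0.036 with a pseudocount of 0.1). The single FOXJ1 transcript passed over transcripts only without GF replicate 3 (adjusted p = 0.038), where the same values did not pass over genes.

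A further 21 genes of these families were found by gene ID, because the mRNA table gives them no symbol or an older one, and they were not among the 50. Of the 19 tested, 1 was lower, 0 were higher, and 18 had a log2 fold change below 0, with a median of -0.44, where 4.93% of all tested genes were lower and 72.7% below 0. With centred libraries 13 were below 0, the median was -0.19 and 0 were called. The gene called was DNAH2, a heavy chain of the inner arm and the partner of DNAH10. It stood at 1.18, 1.75 and 3.12 TPM among GF pigs against 6.39, 5.88 and 6.21 TPM among CG pigs, without overlap (log2 fold change -1.30, SE 0.26, adjusted p = 0.043), and kept its call in 2 of 12 other settings (adjusted p 0.044 to 0.156). CFAP54, a large protein of the central pair, stood at 1.86, 1.96 and 5.52 TPM among GF pigs against 8.31, 5.39 and 6.82 TPM among CG pigs (-1.02). GF replicate 3 was the highest GF library in 16 of the 19 and at 2 or more times both other GF pigs in 8 (42.1%), against 43.2% of the 44. CFAP90 went the other way, at 42.1, 18.0 and 20.7 TPM among GF pigs against 16.3, 12.1 and 3.53 TPM among CG pigs (1.37, adjusted p = 0.130).

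Other genes of the same machinery were taken from 6 lists by role. Their counts stand against 4.93% of all tested genes lower, 72.7% below 0 and a median of -0.23, and their medians ran from -0.34 to -0.06 with centred libraries. Of 9 tested regulators of multiciliated cells besides FOXJ1, 1 was lower, 0 were higher, and all had a log2 fold change below 0 (median -0.58). E2F4, which acts in the amplification of basal bodies and in the cell cycle, stood at 22.9, 25.6 and 24.3 TPM among GF pigs against 37.0, 34.7 and 45.0 TPM among CG pigs (-0.65, adjusted p = 0.047). RFX1 (-0.97, adjusted p = 0.052), RFX2 (-0.89) and RFX3 (-0.75), transcription factors that act with FOXJ1, did not pass. RFX2 stood at 2.7, 4.01 and 5.72 TPM among GF pigs against 8.45, 6.75 and 9.82 TPM among CG pigs, and RFX3 at 14.5, 17.9 and 28.1 TPM and 29.5, 35.5 and 35.4 TPM. In these the groups did not overlap, unlike in FOXJ1. Of the 9 regulators, 5 were separated with GF pigs lower, as were 32.8% of all tested genes. Regulators of the first steps of multiciliation, GMNC, MCIDAS and CCNO, stood at 0.89 TPM or less in every library.

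Of 17 tested genes for the assembly and docking of dynein arms, 1 was lower and 0 higher (median -0.32). DAW1, which carries outer arms into the cilium, stood at 0.52, 1.45 and 2.99 TPM among GF pigs against 8.89, 5.34 and 5.80 TPM among CG pigs (-1.61, adjusted p = 0.04995). ZMYND10 (-0.61), DNAAF4 (-0.77) and DNAAF1 (-0.76), factors of arm assembly in the cytoplasm, did not pass. Of 10 tested light and light intermediate chains 1 was lower, DNAL4 at 4.25, 4.46 and 4.0 TPM among GF pigs against 7.94, 8.2 and 7.98 TPM among CG pigs (-0.79, adjusted p = 0.044), and 0 were higher. This list went both ways, with 7 of the 10 below 0 (median -0.30). At an unadjusted p under 0.05 by limma, 2 were lower and 2 higher. DYNLRB1, a light chain that cytoplasmic dynein uses in all cells, had a log2 fold change of 0.33, while its ciliated-cell relative DYNLRB2 stood at 7.73, 6.07 and 21.1 TPM among GF pigs against 40.2, 15.1 and 26.4 TPM among CG pigs (-1.25, adjusted p = 0.136).

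Of 10 tested genes of the nexin-dynein regulatory complex and of the rulers that set its spacing, 0 were called (median -0.47, 1 at an unadjusted p under 0.05), with CCDC39 (-0.69) and CCDC40 (-0.59), the rulers, among the lowest p. Of 19 tested partners of the central pair and spokes, 1 was lower and 0 higher (median -0.51). It was MORN2, at 30.7, 31.4 and 50.3 TPM among GF pigs against 64.4, 74.8 and 73.7 TPM among CG pigs (-0.94, adjusted p = 0.047). SPEF2, of the central pair, stood at 1.2, 2.61 and 4.86 TPM and 7.32, 6.31 and 5.61 TPM (-1.04, adjusted p = 0.0999). Of 17 tested proteins inside the microtubules 0 were called (median -0.33, 4 at an unadjusted p under 0.05). CIMIP1 stood at 1.02, 2.54 and 11.02 TPM among GF pigs against 21.4, 11.5 and 11.2 TPM among CG pigs (-1.77, adjusted p = 0.107), again with GF replicate 3 near the CG range. Of the 4 calls in these lists, that of DNAL4 held in 3 of 12 other settings, that of MORN2 in 2, that of E2F4 in 1 and that of DAW1 in 0.

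Genes of intraflagellar transport and the primary cilium, which non-motile cilia also use, served for comparison. Of 49 tested, 1 was lower, BBS12, a chaperone of the complex that sorts ciliary cargo (-0.93, adjusted p = 0.043, a call that held in 2 of 12 other settings), 0 were higher, and the median was -0.29, or -0.04 with centred libraries. GF replicate 3 was the highest GF library in 40 of the 49, but 0 of them stood at 2 or more times both other GF pigs. Some genes stand in more than 1 list. Counted once, the 92 tested genes of the 6 lists by role and of the ependymal marker list had 30 (32.6%) at 2 or more times both other GF pigs. Of the 224 such genes in the whole table, 57 (25.4%) were motile cilia genes by symbol, by newer symbol or by these lists. The other 167 stood in none of these, and some of them had no symbol. The lists are not complete, so that 167 is not a count of genes unrelated to motile cilia.

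The small RNA libraries gave a separate measurement on the same replicate numbers. The miR-34 and miR-449 family is known from multiciliated cells, where it acts in the making of basal bodies. In the known miRNAs used here the family had 2 members, miR-34a and miR-34c, and 0 entries for miR-449. By limma-trend on log2(RPM + 1), 0 of these were lower and 0 higher, where 10.1% of 326 tested miRNAs were lower and 6.13% higher, and 0 reached an unadjusted p under 0.05. MiR-34c stood at 224, 182 and 1110 RPM across GF replicates 1 to 3 against 1218, 676 and 638 RPM across CG replicates 1 to 3 (log2 fold change -1.18, SE 0.70, 95% interval -2.86 to 0.51, adjusted p = 0.274). GF replicates 1 and 2 were below every CG pig, GF replicate 3 was within the CG range, and CG replicate 1 was the highest of all 6, as in FOXJ1.

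GF replicate 3 stood at 5.47 times the mean of the other GF pigs in miR-34c, the highest ratio of the 326 tested miRNAs, and only 4 miRNAs (1.23%) had it at 2 or more times both others. Without GF replicate 3, miR-34c was lower in GF pigs (log2 fold change -1.99, adjusted p = 0.020, in a fit where 10.7% of miRNAs were lower), and without GF replicate 2 or GF replicate 1 it was at -0.69 (adjusted p = 0.541) and -0.84 (adjusted p = 0.469). MiR-34a, which many cell types make, did not follow. It stood at 126, 161 and 74.9 RPM among GF pigs against 162, 143 and 148 RPM among CG pigs (-0.39, adjusted p = 0.377), with GF replicate 3 the lowest of all 6 libraries.

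**Figure D4:**
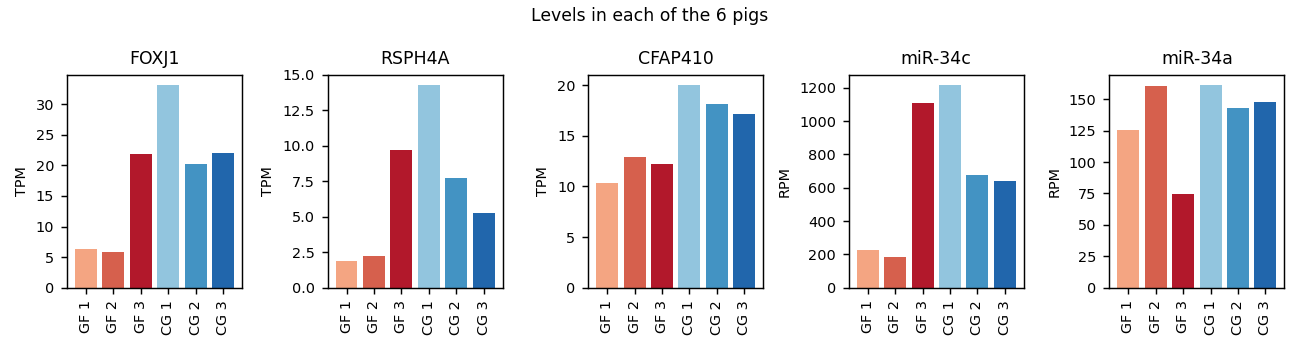
Levels in each of the 6 pigs (bars, from 0) of FOXJ1, RSPH4A and CFAP410 in TPM and of miR-34c and miR-34a in RPM. In FOXJ1, RSPH4A and miR-34c the bars of GF replicates 1 and 2 are low and that of GF replicate 3 is within the CG range, in CFAP410 all 3 GF bars are lower than all CG bars, and in miR-34a GF replicate 3 is lowest.

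The label of an ependymal source was checked on a list of further ependymal markers, which shares DYNLRB2 with the lists above. Of 19 in the table, 13 were tested and 0 were called (median -0.42, 2 at an unadjusted p under 0.05, both lower). The log2 fold change was below 0 in 11 of the 13, where 72.7% of all tested genes were, and above 0 in 2, up to 0.72. With centred libraries the median was -0.17. CCDC153, a marker of ependymal cells in the mouse, stood at 1.11, 5.88 and 7.86 TPM among GF pigs against 13.95, 8.42 and 7.43 TPM among CG pigs, and SPATA17 at 2.06, 2.66 and 4.23 TPM and 9.87, 5.66 and 5.43 TPM (-0.997, adjusted p = 0.078). GF replicate 3 was the highest GF library in 10 of the 13 and CG replicate 1 the highest CG library in 12. The list summed to 194, 354 and 349 TPM across GF replicates 1 to 3 against 510, 380 and 312 TPM across CG replicates 1 to 3. In this sum, unlike that of the motile cilia genes, GF replicate 2 was level with GF replicate 3. Gene by gene the order was that of the motile cilia genes. The median of log2(TPM + 1) minus the gene mean was -0.87, -0.30 and 0.28 across GF replicates 1 to 3, against -0.73, -0.45 and 0.39 for the motile cilia genes. Of the defining markers, TMEM212 stood at 0 to 0.71 TPM and SNTN at 0 to 1.0 TPM, so that these libraries held little of either, while genes shared with other cells, such as PLTP at 101 to 285 TPM, made up most of the sum.

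Markers of other cell types of the ventricle wall were read in the same libraries. Of all tested genes, 4.93% were lower and 1.08% higher by limma, and 72.7% were below 0. At an unadjusted p under 0.05, 26.6% were lower and 4.31% higher, and the counts below stand against these shares. Tanycyte markers had a median log2 fold change of -0.59 over 17 tested genes, close to the -0.56 of the motile cilia genes, with 12 below 0 and GF replicate 3 the highest GF library in 11. With centred libraries the medians were -0.35 and -0.31. At an unadjusted p under 0.05, 6 tanycyte markers were lower and 3 higher, and 0 of the 17 had GF replicate 3 at 2 or more times both other GF pigs. The only call was VCAN, higher in GF pigs (0.64, adjusted p = 0.043), and this list had 0 calls with the replicate block, with the most abundant transcript, or without GF replicate 1, GF replicate 3 or any 1 CG replicate. The list summed to 522.5, 431 and 684 TPM across GF replicates 1 to 3 against 605, 673 and 1238 TPM across CG replicates 1 to 3. GF replicate 3 thus lay above CG replicates 1 and 2, and CG replicate 3 was the highest CG library in 12 of the 17. RAX, which defines tanycytes, was listed at 0 in every GF pig and at 0.15, 1.24 and 2.51 TPM among CG pigs. Of 13 tested choroid plexus markers 2 were higher, TTR (3.60, adjusted p = 0.029) and CLIC6 (1.47, adjusted p = 0.026), and 0 lower (0 calls with the replicate block and without GF replicate 1 or any 1 CG replicate), with sums of 446 to 882 TPM among GF pigs against 375 to 469 TPM among CG pigs. As a list they went both ways, with a median log2 fold change of 0.004 and 6 of the 13 below 0. At an unadjusted p under 0.05, 3 were lower and 2 higher. TTR was lowest of the GF pigs in GF replicate 3. Over the choroid plexus list, the median of log2(TPM + 1) minus the gene mean was 0.22, 0.08 and -0.04 across GF replicates 1 to 3. CLDN2, also of the choroid plexus, stood at 0 to 0.62 TPM. The cells of the choroid plexus also carry cilia, and their part in the cilia values was not tested. Of 14 tested astrocyte markers 0 were called (median -0.03, 4 at an unadjusted p under 0.05), with sums of 5243 to 6308 TPM and 5240 to 6380 TPM. For the thalamus the 16 tested markers added up to 1988, 319 and 1604 TPM across GF replicates 1 to 3 against 393 to 432 TPM among CG pigs, and for the hypothalamus 27 tested markers, 10 of them lower in GF pigs, to 128, 1526 and 1381 TPM and to 1635 to 3448 TPM. Some hypothalamus markers shared the order of the cilia genes, and 4 of the 27 (14.8%, against 1.53% of all tested genes) had GF replicate 3 at 2 or more times both other GF pigs. These were HDC, the enzyme that makes histamine, at 0.42, 0.83 and 5.15 TPM among GF pigs, the growth hormone releasing hormone GHRH at 0.10, 0.82 and 2.05 TPM, PMCH, the precursor of melanin-concentrating hormone, at 0, 33.4 and 84.7 TPM, and the transcription factor BSX at 0, 0 and 0.1 TPM. The order of BSX rests on a value near 0, and BSX was tested through the CG pigs alone (10.6, 8.21 and 6.48 TPM). TH, the first enzyme of dopamine synthesis and not in that list, stood at 0.17, 7.67 and 18.7 TPM. In each of these 5 genes the 3 GF pigs stayed below every CG pig. The part of tissue composition in the cilia values was not tested.

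**Figure D5:**
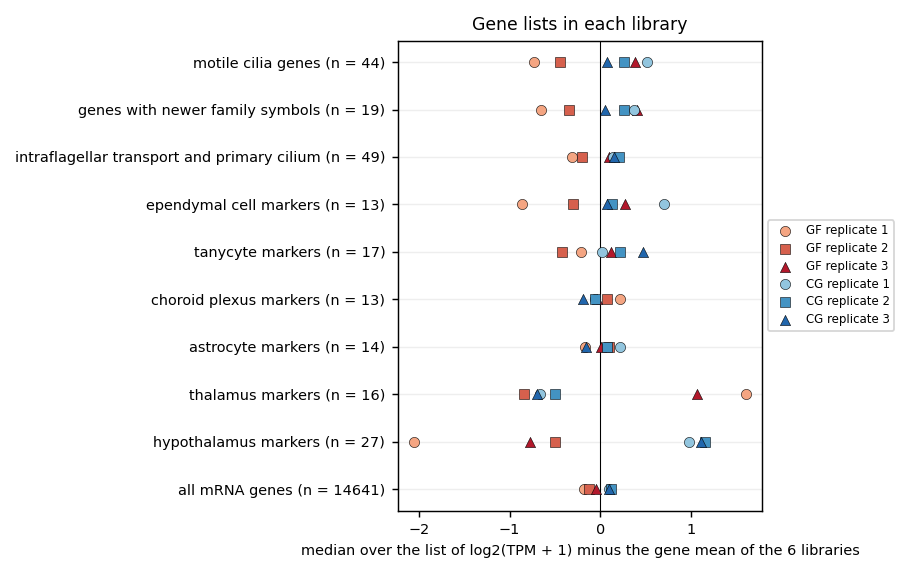
Median over each gene list of log2(TPM + 1) minus the gene's mean over the 6 libraries, with 1 point for each library. The motile cilia genes stood at -0.73, -0.45 and 0.39 across GF replicates 1 to 3 against 0.51, 0.26 and 0.08 across CG replicates 1 to 3, while all tested genes stayed between -0.18 and 0.12.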

How the data were processed

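Long RNA and small RNA of the hypothalamus of 3 GF and 3 CG pigs were sequenced, which gave 12 libraries. The deposited mRNA values are TPM per transcript, made by the authors from reads aligned to Sscrofa11.1. The paper and the labels differ on the number of pigs reared, their age and the tools, and the labels were followed. Both give 3 pigs of each group for RNA. For the tools, the labels name fastp, HISAT and RSEM without versions. For miRNAs the deposited unit is RPM, for which the authors scaled the reads of each known miRNA to those mapped to miRBase. The smallest RPM above 0 was 0.0496 to 0.107 in a library. For TPM the depth is unknown, so no counting error is given.

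TPM were added up per gene (47559 transcripts, 19256 genes). GF and CG pigs were compared by limma-trend (R 4.3.3, package version 3.58.1) on log2 values with a pseudocount of 1. Features reaching 1 in 3 or more libraries were used, with Benjamini-Hochberg adjustment over all of them. In simulated data run first, 43% of mRNA genes changed by a log2 of 1 passed, and 83% of those changed by 2. For miRNAs the shares were 86% and 92%. Of unchanged genes and miRNAs, 0.0277% and 2.38% passed. In each simulation 100 features were changed by each size, among 14641 genes but only 326 miRNAs. The adjustment depends on the share changed, so the rates of genes and miRNAs cannot be compared. Because TPM are not counts, no count test was run. Tables and figures were made in Python 3.11.15 with numpy 2.4.6, pandas 2.3.3 and matplotlib 3.10.9. Of the member IDs, 47 of 50 have the same symbol in the reference gene names. P-values measure the spread between pigs of 1 sow.

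The members, the 15 further gene lists and the settings were chosen with earlier results of these data known. Named by rule were FOXJ1, any member called, the 4 members of each family with the highest mean TPM, the members not tested, up to 4 genes of each list with the lowest p, TTR, SHOX2 and NKX2-1. Other genes were named after their values were seen. The alternatives were a pseudocount of 0.1, no filter, mitochondrial genes out of the scaling, median-centred libraries, the most abundant transcript of each gene, the replicate number as a block and leaving out each library. The lncRNA table was used only for rows that carry a member's gene ID.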

Additional observations from a re-analysis of the deposited data

How the results depend on the processing

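In every alternative run, 0 of the motile cilia genes were lower and 0 higher, though several of these runs called few genes at all. The median log2 fold change of the members was below 0 in all of them, at -0.31 with centred libraries to -0.76 with a pseudocount of 0.1, and -0.79 to -0.33 with 1 library left out, while FOXJ1 ran from -1.84 to -0.97. The number of members at an unadjusted p under 0.05, 14 in the main test, was 9 without mitochondrial genes in the scaling, 5 with centred libraries and 5 to 29 with 1 library left out, the highest without GF replicate 3. Of member transcripts, 1 was called in the main test, 0 without the filter, without mitochondrial genes and with centred libraries, and 0 to 1 with 1 library left out. It was the DNAH10 transcript in the main test and without CG replicate 3, the FOXJ1 transcript without GF replicate 3, and the CFAP69 transcript with a pseudocount of 0.1. For the miR-34 and miR-449 family the count of lower members was 0 to 1 with 1 library left out, the 1 being miR-34c without GF replicate 3.

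The small differences of several members changed sign. With centred libraries they were 0.027 for DNAH5, 0.22 for CFAP298-TCP10L (0.074 without mitochondrial genes), 0.091 for CFAP126, 0.16 for TEKT1 and 0.10 for RSPH9. With 1 library left out they ran from -0.67 to 0.26 for DNAH5, -0.19 to 0.14 for CFAP298-TCP10L, -0.093 to 0.202 for CFAP97, -0.68 to 0.17 for CFAP126, -0.20 to 0.20 for CFAP36, -0.14 to 0.33 for TEKT3 and -0.47 to 0.27 for TEKT1. The cause was not tested.

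The replicate numbers are not stated to pair the pigs. Over all tested genes, the deviations of same-numbered GF and CG pigs had correlations of -0.02, 0.06 and -0.01. With the replicate block, 0 members were called, their median was -0.56, 9 had an unadjusted p under 0.05 and 0 member transcripts were called. Over all genes, the 722 lower and 158 higher became 18 and 17 with the block and 129 and 265 with centred libraries. They became 25 and 25 without GF replicate 1, 920 and 417 without GF replicate 2 and 23 and 19 without GF replicate 3. Without CG replicates 1, 2 and 3 in turn they were 8 and 16, 8 and 14, and 29 and 26. The block, and every run without 1 library except that without GF replicate 2, thus called few genes at all. In those settings 0 called members, or the lost call of another gene, carries little information. The depth behind a TPM is unknown.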

Other observations

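The lncRNA table held 4 transcripts that carry the gene ID of a member, a class of RNA that the comparisons above did not use. A transcript at the CFAP44 locus, whose protein tethers an inner dynein arm, stood at 0, 0.72 and 0 TPM among GF pigs against 0, 5.34 and 5.27 TPM among CG pigs. The transcript at CFAP299 stood at 0, 0 and 0.56 TPM and at 0, 8.71 and 1.86 TPM, that at CFAP69 reached 0.04 TPM in CG replicate 3 alone, and that at CFAP61 was listed at 0 throughout. CG replicate 1, the highest CG library for most of the members' mRNA, was thus listed at 0 in all 4. No test was run on these values, and a listed 0 can stand for a transcript with too few reads.

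Of the 4 miRNAs with GF replicate 3 at 2 or more times both other GF pigs, miR-190b stood at 11.4, 9.92 and 37.5 RPM among GF pigs against 69.6, 42.3 and 29.7 RPM among CG pigs, and miR-92b-5p at 0.27, 1.11 and 2.35 RPM and 3.52, 3.37 and 2.91 RPM. MiR-375, a miRNA of endocrine cells, stood at 111, 123 and 542 RPM among GF pigs against 1630, 403 and 24441 RPM among CG pigs. These were chosen after their values were seen.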
